A study of Mus musculus with 6 samples.

Results

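The MAGE family (melanoma antigen genes) was described here by 7 mouse genes: Mageb16, Maged1, Maged2, Mageh1, Magee1, Magel2 and Ndn. They were picked by name from a table of 53465 gene identifiers, because Mageb16 differed between the groups of this same table and the other 6 are relatives usually described as broadly expressed. The contrast therefore chose Mageb16, and the member values below are a description without a test. The RNA came from EMT6, a mouse mammary carcinoma line, grown in RPMI with 5% FBS, and polyadenylated RNA was sequenced from 6 samples. In 3 samples the cells had received an isotype control antibody (PVITRO, parental) and in 3 an antibody against PD-L1 (PTRVITRO), the ligand of the inhibitory T cell receptor PD-1. Both antibodies were used at 0.5 μg/ml for more than 4 weeks, so the groups share the line, the medium, the dose and the duration. All samples came from 1 cell line cultured without host cells, and the labels do not say that replicates were separate cultures. The comparison asks how tumor cells kept under PD-L1 blockade differ in RNA from cells kept under the isotype control. The groups were cultured apart for this time, so the antibody and the separate culture cannot be told apart.

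MAGE proteins share a conserved fold, the MAGE homology domain, and many of them bind RING-type ubiquitin ligases and steer their targets. Type I genes (in the mouse Magea and Mageb) lie mostly on the X chromosome, are largely restricted to testis and other germ cells, and are known as cancer-testis antigens when tumors express them. Type II genes (Maged, Magee, Mageh1, Magel2, Ndn, Nsmce3 and Tro) are described in many somatic tissues, with high levels in brain for several of them. Ndn and Magel2 are imprinted and expressed from the paternal copy, in the region deleted in Prader-Willi syndrome.

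The total estimated count per sample ran from 17757341 to 32426739, and 14217 genes passed the filter on low counts. CPM below means counts scaled to library size after upper quartile scaling, and a count of 3, used as the floor, equals 0.0925 to 0.168 CPM. Markers of the line were read first. The epithelial keratins Krt8 and Krt18 had 19778 to 34791 and 10120 to 16965 counts per sample, and the mesenchymal filament gene Vim had 32794 to 63944. The epithelial adhesion genes were low, with 30 to 70 counts per sample for Epcam and 0 to 1 for Cdh1. Of the leukocyte markers, the pan-leukocyte gene Ptprc was at 0 in all 6 samples and Cd3e and Itgam had at most 1 count, while the lysosomal gene Cd68 had 202 to 419 counts per sample. The germ cell markers Ddx4, Dazl, Prm2 and Tnp1 were at 0 in all samples. The 6 germ cell markers summed to at most 0.0617 CPM in any sample. No tested gene of the 7 marker lists was called by edgeR, and no endothelial or germ cell marker passed the filter. With 0.246% of all tested genes called, nothing is read from this.

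Of the 7 genes, 4 passed the filter (Mageb16, Maged1, Maged2 and Magee1). The other 3, Mageh1, Magel2 and Ndn, gave no count in any of the 6 libraries, so the description of these 3 as broadly expressed does not hold for EMT6 RNA at this depth. A count of 0 is read below against a floor of 3 counts in each library.

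Promoter sequence is shown for 3 of the genes, each in a different state in the data. Maged1 and Maged2, detected at higher levels in both groups, are not shown. Mageb16 was detected in PVITRO alone, Magee1 was detected in all samples at a low level, and Mageh1 was at 0 throughout. Each window is the 250 bases before the RefSeq start in GRCm38.p6, written 5′ to 3′ on the strand of the gene with every CG pair in capitals. The windows are chrX:79671436-79671685 on the minus strand for Mageb16, chrX:105120128-105120377 on the plus strand for Magee1 and chrX:153037564-153037813 on the minus strand for Mageh1.
Mageb16: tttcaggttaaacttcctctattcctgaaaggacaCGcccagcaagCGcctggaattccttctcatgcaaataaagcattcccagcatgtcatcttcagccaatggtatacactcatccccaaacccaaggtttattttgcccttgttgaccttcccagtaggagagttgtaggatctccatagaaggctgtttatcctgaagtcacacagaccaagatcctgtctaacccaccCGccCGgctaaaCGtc
Magee1: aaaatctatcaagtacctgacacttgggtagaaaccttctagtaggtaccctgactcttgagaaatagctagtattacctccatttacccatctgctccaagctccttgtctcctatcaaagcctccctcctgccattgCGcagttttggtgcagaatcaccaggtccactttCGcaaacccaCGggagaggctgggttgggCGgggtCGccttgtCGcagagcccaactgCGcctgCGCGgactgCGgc
Mageh1: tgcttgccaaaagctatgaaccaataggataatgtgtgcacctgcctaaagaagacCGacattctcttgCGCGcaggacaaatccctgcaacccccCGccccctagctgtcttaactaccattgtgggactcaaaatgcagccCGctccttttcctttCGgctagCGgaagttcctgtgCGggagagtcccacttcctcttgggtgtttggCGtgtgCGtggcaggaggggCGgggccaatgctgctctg
The Mageb16 window holds 5 CG pairs, and 55.6% of the 32851 RefSeq windows of this length hold as many or more. The Magee1 window holds 10 (37.8% of windows hold as many or more) and the Mageh1 window 11 (35.6%). The GC content was 47.6% for Mageb16, 54% for Magee1 and 56% for Mageh1. The E-box CACGTG, the E2F-type letters GCGGGA and the TATA box letters TATAAA were searched on both strands. The Mageb16 and Magee1 windows hold none of them, and the Mageh1 window holds GCGGGA, as do 16.9% of all windows. CACGTG is in 6.02% and TATAAA in 12.4% of all windows. Among the other members, the windows hold 5 CG pairs for Ndn, 7 for Magel2, 14 for Maged1 and 7 to 16 at the 4 starts of Maged2, so neither the detected nor the undetected members had uniformly few. RefSeq and GENCODE place the start of Mageb16 and Magee1 at the same base, that of Mageh1 12 bases apart and that of Ndn 1708 bases apart. These are matches of letters, and DNA methylation or factor binding was not measured.

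Mageb16 (ENSMUSG00000046942.17) lies on the minus strand at chrX:79623231-79671435. Its 2 annotated transcripts start at 79671435 and 79635582 and share 1 coding exon of 363 codons, with the promoter window above belonging to the longer, 4-exon transcript. Mageb16 had counts of 62, 82 and 61 in the PVITRO samples and of 0, 0 and 0 in the PTRVITRO samples. Every PVITRO sample was above every PTRVITRO sample. As CPM, the PVITRO samples had 2.65, 2.74 and 2.52 (2.64 ± 0.108, SD, n = 3). The coefficient of variation over these 3 was 4.11%. Counting error alone would give about 12.1% at these counts, so the observed spread understates the uncertainty.

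The depth behind the zeros was set out in the same way. Exact Poisson 95% intervals were 47.5 to 79.5, 65.2 to 102 and 46.7 to 78.4 counts in the PVITRO samples. For a count of 0 the same two-sided interval reaches 3.69 counts. The floor of 3 counts, the lower of these limits and the one used for all genes at 0, is 0.0925, 0.106 and 0.168 CPM in PTRVITRO replicates 1, 2 and 3. These intervals and limits cover counting error only. At the mean PVITRO level, the PTRVITRO libraries would have held 85.5, 74.7 and 47 counts. Taken against the mean of these floors (0.122 CPM), and not against the wider interval, Mageb16 was at least 21.6-fold lower in PTRVITRO. The floor of PTRVITRO replicate 3 alone is higher, at 0.168 CPM, so the bound for that library is smaller. The PTRVITRO library with the fewest reads, replicate 3, was also at 0, and without it the bound was 26.5-fold. In bulk RNA, fewer cells with Mageb16 RNA and less Mageb16 RNA in each cell cannot be told apart. The sums of some marker lists did not overlap between the groups. Of all tested genes, 17.6% did not overlap either, so nothing is read from this. The 4 fibroblast markers summed to 43.6 to 54.5 CPM in PVITRO and 33.6 to 41.3 in PTRVITRO, without overlap and with Lum and Thy1 at 0 in all samples. The difference lay in the matrix gene Dcn, which was not called (log2 fold change -0.56, edgeR adjusted p = 0.0919), since Pdgfra was 8.43 ± 1.16 and 9.08 ± 0.907 CPM. The 3 basal markers summed to 21.3 to 21.9 CPM in PVITRO and 16.6 to 20 in PTRVITRO, and the 5 mesenchymal markers to 8570 to 9420 and 7890 to 8350, both without overlap. The difference in the mesenchymal sum lay in Fn1 (6640 ± 471 and 5870 ± 315 CPM, not called). Vim had 1890 CPM in both groups and S100a4 384 ± 15.5 and 400 ± 11.3. Zeb1, too low to weigh in the sum, was also lower in PTRVITRO without overlap (15.1 ± 1.08 and 12.8 ± 0.891 CPM, not called). The sums of the epithelial, leukocyte and germ cell lists overlapped, and the 3 endothelial markers were near the floor, at 0.124 to 0.257 and 0.0617 to 0.112 CPM. Within the epithelial list, Krt18 (489 ± 14.6 and 549 ± 23.1 CPM) and Epcam (1.59 ± 0.306 and 2.24 ± 0.149) did not overlap and were not called. The part of these markers in the Mageb16 result was not tested.

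**Figure D1:**
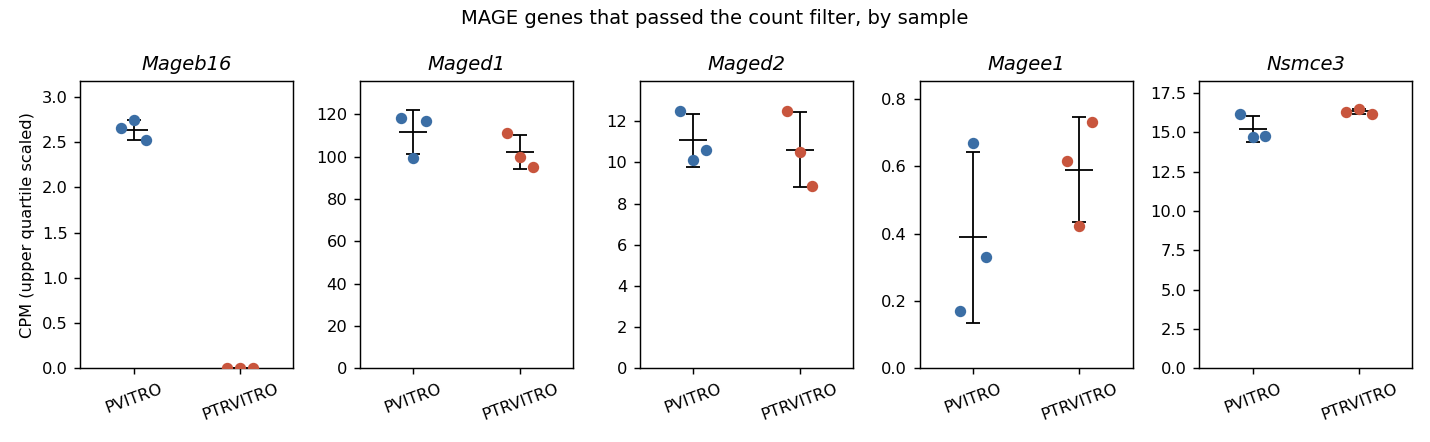
Level of the 5 MAGE genes that passed the filter, in CPM (y axes from 0, one scale per gene), for 3 PVITRO and 3 PTRVITRO samples. Points are samples, and the bar is the mean ± SD. Mageb16 lies at 2.52 to 2.74 CPM in PVITRO and at 0 in PTRVITRO, while the points of Maged1, Maged2 and Magee1 overlap between the groups.

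How common such a pattern is was counted over the whole table, as background only. Of 14217 genes tested, 35 (0.246%) were called by edgeR at an adjusted p below 0.05, 21 of them lower in PTRVITRO (0.148%). Groups that did not overlap in CPM were much more common, at 2506 genes (17.6%). Of 13589 genes with at least 10 counts in each PVITRO sample, 1 (0.00736%) was at 0 in every PTRVITRO sample, and that gene was Mageb16. In the opposite direction, 0 of 13326 genes (0%) had at least 10 counts in each PTRVITRO sample and 0 in each PVITRO sample. These shares involve the contrast that selected Mageb16, so nothing is read from them. Mageb16 was also a low gene, with its PVITRO mean at percentile 20 of the tested genes.

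Mageb16 has close copies, which bears on how reads are shared out. Of its 1894 exonic stretches of 50 bases, 1044 (55.1%) also occur in the pseudogene Mageb16-ps2 at chr6:60769967-60771059 and 334 (17.6%) in Mageb16-ps1 at chrX:144555211-144556337. The other 850 (44.9%) occur in Mageb16 alone among annotated exons. Both pseudogenes had a count of 0 in all 6 samples, and the deposited Mageb16 values were exact whole numbers in all samples. No reads were thus listed under a copy in PTRVITRO in place of Mageb16.

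Among the members of the Maged branch, Maged1 (ENSMUSG00000025151.16, chrX:94535474-94542143, minus strand) was the most abundant MAGE gene. Its protein, also named NRAGE, binds the neurotrophin receptor p75NTR. Maged1 had CPM values of 118, 99.4 and 117 in PVITRO and of 111, 100 and 95.2 in PTRVITRO. The groups overlapped, with means of 111 ± 10.3 and 102 ± 7.93 and an edgeR log2 fold change of -0.12 (SE 0.0711). Its counts of 1697 to 3591 make counting error small.

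Maged2 (ENSMUSG00000025268.15, chrX:150806370-150814345, minus strand) is known for its role in salt transport in the fetal kidney. Maged2 had CPM values of 12.5, 10.1 and 10.6 in PVITRO and of 12.5, 10.5 and 8.87 in PTRVITRO. The groups overlapped, and the log2 fold change was -0.04 (SE 0.125). Its sign was not stable, since the value was 0.07 without PVITRO replicate 1 and also without PTRVITRO replicate 3. Maged2 shares 1.49% of its 50-base stretches with Tro.

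Magee1 (ENSMUSG00000031227.8, chrX:105120378-105123927, plus strand), which encodes a protein of the dystrobrevin complex also called DAMAGE, stood near the floor. Its counts were 4, 20 and 8 in PVITRO and 20, 12 and 13 in PTRVITRO. As CPM these were 0.171, 0.668 and 0.331 against 0.617, 0.424 and 0.73. PVITRO replicate 2 lay within the PTRVITRO range, so the groups overlapped. The log2 fold change was 0.50 (SE 0.443), and it was 0.18 without PVITRO replicate 1 and 1.18 without PVITRO replicate 2, so a single library set its size. A difference at this depth was not detectable beyond the spread of the samples.

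The remaining 3 members gave no reads. Mageh1, a short X-linked gene at chrX:153036166-153037575, had a count of 0 in all 6 samples. Magel2 (chr7:62377010-62381640), whose protein acts with TRIM27 on the WASH complex in retromer-dependent sorting, was at 0, and so was Ndn (chr7:62346569-62350262), whose protein necdin restrains growth in neurons. For each of the 3 genes, the floor of 3 counts corresponds to 0.0925 CPM in the deepest sample and 0.168 CPM in the shallowest.

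The wider family gives the setting for these values. The table lists 24 MAGE genes and 9 MAGE pseudogenes, and 16 of the 24 genes were at 0 in all samples. Of the 15 type I genes, 12 were at 0 and only Mageb16 passed the filter. Mageb2 had 1 count in PVITRO replicate 3 and none elsewhere, and Mageb3 had 1 count each in PTRVITRO replicates 2 and 3. Of the 9 type II genes, 4 passed the filter and 4 were at 0. Tro, the trophinin gene, was in between, with counts of 1, 1 and 0 in PVITRO and 0, 0 and 2 in PTRVITRO. The pseudogene Mageb7-ps had 1 to 4 counts in each sample, and Magea9-ps had 1 count in PTRVITRO replicate 1. Mageb16 was thus the 1 type I gene above trace level, with 82 counts in a sample where the other type I genes had at most 1.

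Nsmce3, the only MAGE gene outside the 7 that passed the filter, encodes the MAGE subunit of the SMC5/6 complex (chr7:64867052-64872997, minus strand). Nsmce3 had CPM values of 16.2, 14.7 and 14.8 in PVITRO and of 16.3, 16.5 and 16.2 in PTRVITRO. The groups overlapped at 16.2, and the log2 fold change was 0.10 (SE 0.0669), which was not called (edgeR, adjusted p = 0.601). Nsmce3 overlaps another gene, Fam189a1, on the same strand.

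To set the genes in order, levels were compared as CPM per kb of merged exons. In PVITRO, Maged1 had 25.6 ± 2.36 CPM per kb, Maged2 3.42 ± 0.402, Nsmce3 2.56 ± 0.144, Mageb16 1.36 ± 0.0557 and Magee1 0.11 ± 0.0714 (SD, n = 3). The sample ranges of neighbours in this order did not overlap in PVITRO. In PTRVITRO the order was Maged1 at 23.5 ± 1.82, Maged2 at 3.28 ± 0.555, Nsmce3 at 2.75 ± 0.0298 and Magee1 at 0.166 ± 0.0436, and Mageb16 was at 0. There, Maged2 (2.74 to 3.85) and Nsmce3 (2.72 to 2.78) overlapped and were not told apart. Mageb16 in PVITRO therefore ranked above Magee1 and below the other 3 detected genes. Over the longest transcript in place of merged exons, Maged1 had 38.6 CPM per kb in PVITRO and the order was unchanged. Without PVITRO replicate 2, Magee1 had 0.0707 CPM per kb there.

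**Figure D2:**
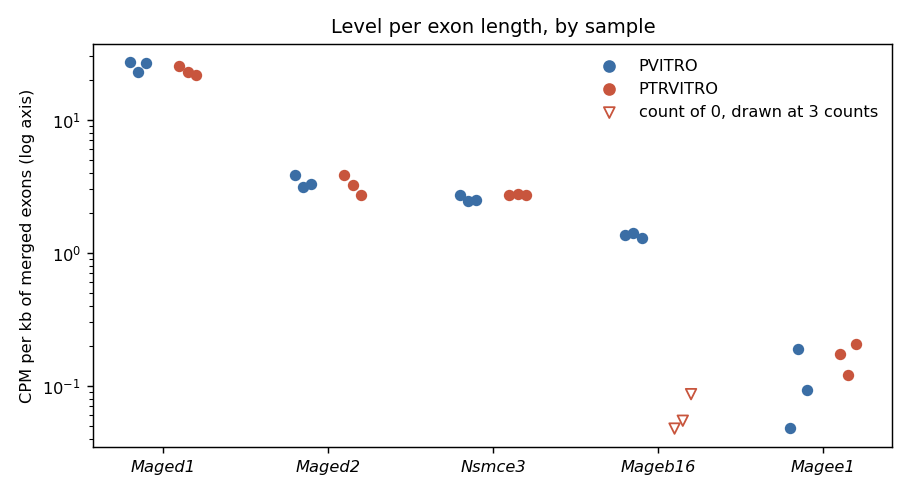
Level per length of the 5 MAGE genes, in CPM per kb of merged exons (log axis), with 1 point per sample. Open triangles are counts of 0, drawn at the floor of 3 counts. The PTRVITRO triangles of Mageb16 lie below its PVITRO points at 1.3 to 1.41, and Maged1 is highest in both groups.

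The surroundings of Mageb16 on the X chromosome were read for the same samples. Within 2 Mb of either end of the gene, 48 other genes are annotated in whole or in part, of which 36 gave no reads at all and 7 were tested. None of the 7 was called, and with 0.246% of all tested genes called, nothing is read from this. Tbl1x, a subunit of the NCoR and SMRT corepressor complexes, had 306 ± 9.14 CPM in PVITRO and 308 ± 6.67 in PTRVITRO (log2 fold change 0.01, edgeR adjusted p = 0.954). Prkx, a protein kinase gene, had 144 ± 12.1 and 148 ± 11.1 (0.03, edgeR adjusted p = 0.901). The remaining 5 tested genes of the window are predicted genes or pseudogenes.

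The 3 nearest tested genes on each side had the following log2 fold changes. On one side they were 0.13 for Gm8770, -0.18 for Gm5939 and 0.16 for Rps24-ps3. On the other they were -0.06 for Gm8806, -0.15 for Gm8822 and 0.10 for Tab3, a TAK1-binding adaptor. The edgeR adjusted p-values of these 6 ran from 0.255 to 0.923, so none was called. With 0.246% of all tested genes called, nothing is read from that. Rps24-ps3 did not overlap between the groups (197 ± 13.5 against 220 ± 9.16 CPM), and it shares 63.5% of its 50-base stretches with other genes, so its counts are uncertain. Gm8822 did not overlap either, at 33.8 against 30.7 CPM. Gm8822 (52.8%), Gm8806 (35.8%) and Gm5939 (20.6%) also share sequence with other genes.

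**Figure D3:**
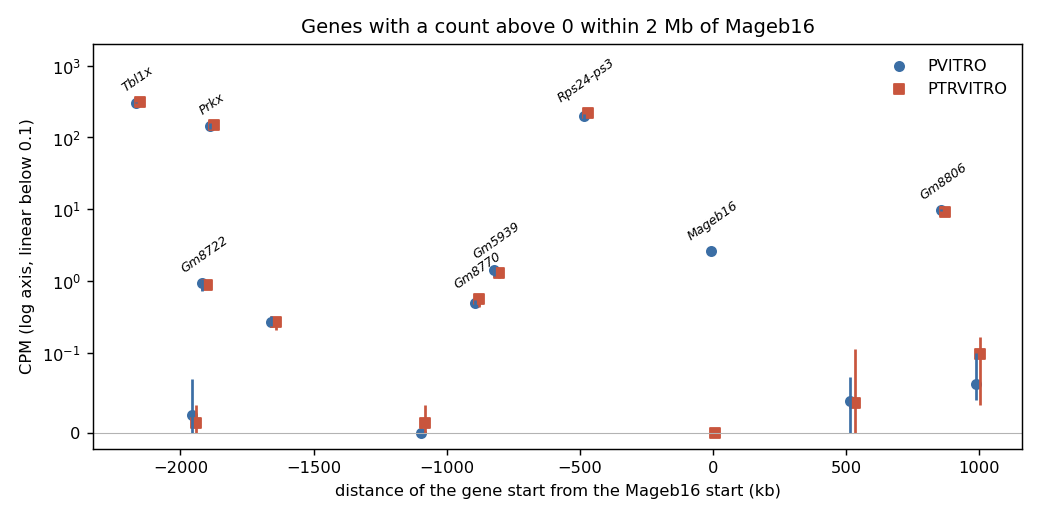
Level in CPM (log axis, linear below 0.1) of each gene with a count above 0 that lies, at least in part, within 2 Mb of the Mageb16 gene, against the distance in kb from the Mageb16 start to the start of the gene. Symbols are group means and lines span the lowest to the highest sample. PVITRO and PTRVITRO lie close together for Tbl1x and Prkx, with means of 306 and 308 CPM and of 144 and 148 CPM, and apart for Mageb16 at 0 kb.

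Across the X chromosome, 447 of 2614 genes were tested and 2 were called, both lower in PTRVITRO. One of these is Mageb16, which the contrast itself selected, so no share is set against the background. The median log2 fold change of the 447 was 0.003, with 229 positive and 218 negative values, close to -0.0040 over all tested genes. Of the 447, 34 had an unadjusted p below 0.05, as did 1620 of all 14217 tested genes (11.4%). Apart from Mageb16, the called gene was Gm14698, named here after its values were seen. Gm14698 had 15, 16.2 and 16.9 CPM in PVITRO and 10.5, 11.1 and 12.1 in PTRVITRO (log2 fold change -0.53, edgeR adjusted p = 0.0238). It shares 94.3% of its 50-base stretches with Styx and Gm18944, so its reads cannot be assigned with certainty, and 1 X-linked call was left in 4 of the 6 fits that left out a sample.

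**Figure D4:**
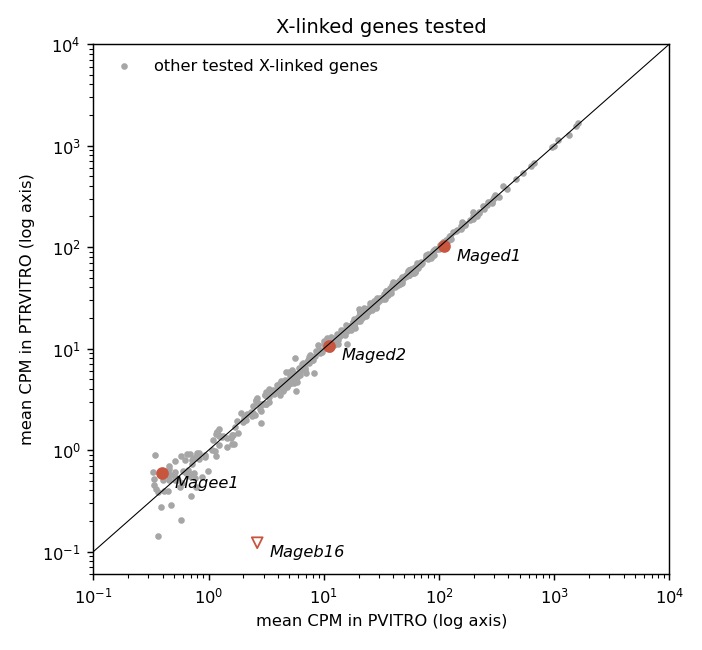
Mean CPM in PTRVITRO against mean CPM in PVITRO (log axes) for the X-linked genes tested, with MAGE genes in red and the line of equality. The Mageb16 triangle is drawn at the floor, below the line, and Maged1, Maged2 and Magee1 lie near the line.

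Genes whose profile was most like that of Mageb16 were ranked by Pearson's r of log2 CPM over the 6 samples. The 5 highest were Thbs2 (0.998), Gm18284 (0.997), Tmub1 (0.996), Gm45774 (0.992) and Ice1 (0.992). Because Mageb16 has in effect a high and a low level, this measure rewards a gap between groups that is wide beside the spread within them, and the points share group and library. Thbs2, the gene of the matrix glycoprotein thrombospondin 2, had 63.5, 63.5 and 62.9 CPM in PVITRO and 49.9, 50.2 and 48.9 in PTRVITRO (log2 fold change -0.35, edgeR adjusted p = 0.00529). Gm45774, antisense to the metallothionein gene Mt2, had 32.7 ± 0.211 and 23.8 ± 0.826 CPM (-0.47, edgeR adjusted p = 0.00529), and use of strand in counting is not stated. The values were -0.30 for Gm18284, -0.27 for Tmub1 and -0.09 for Ice1, and these 3 were not called (edgeR adjusted p 0.484, 0.453 and 0.379). Gm18284 shares 39.3% of its 50-base stretches with Tm2d1 and lies opposite L3mbtl2, and Ice1 lies opposite 1700100L14Rik, so the same limit on strand holds for both.

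Other genes that work with MAGE proteins were read from lists. In none of the 7 lists was a gene called, in either direction, under edgeR, limma-voom or DESeq2. With 0.246% of all genes called by edgeR, lists of this size would hold few or no calls in any case, so nothing is read from the 0. The median log2 fold change of all tested genes was -0.0040. Counts below an unadjusted p of 0.05 are given for each list, against 11.4% of all tested genes.

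Partners of MAGE proteins came first, the ubiquitin ligases and binding proteins. Of 15 listed, 10 were tested, 4 positive and 6 negative, with a median log2 fold change of -0.008 and 0 below an unadjusted p of 0.05. Usp7, a deubiquitinase, had 204 ± 8.75 CPM in PVITRO and 209 ± 1.26 in PTRVITRO (0.03, edgeR adjusted p = 0.783). Trp53, the p53 tumor suppressor gene, had 206 ± 4.65 and 199 ± 7.36 (-0.04, edgeR adjusted p = 0.708). Trim28, the KAP1 corepressor that several type I MAGE proteins bind, had 121 ± 7.07 and 118 ± 6.78 CPM. The largest log2 fold change in size was -0.09, for the apoptosis inhibitor gene Xiap (edgeR adjusted p = 0.912). Unc5a, Dlx5 and Msx2, known for binding MAGED1 or necdin, were at 0.

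In the SMC5/6 complex, which holds Nsmce3 and acts in DNA repair and chromosome segregation, 8 of 9 genes were tested. Of these, 7 were positive and 1 was negative, the median was 0.088, and 2 were below an unadjusted p of 0.05. Smc6 had CPM values of 147, 155 and 150 in PVITRO and 156, 163 and 167 in PTRVITRO, without overlap (log2 fold change 0.11, edgeR adjusted p = 0.325). Its partner Smc5 had 0.02 (edgeR adjusted p = 0.905). The largest difference was in Slf1, a loader of the complex at DNA damage, at 0.17, also without overlap (edgeR adjusted p = 0.397). None of these passed the test.

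The WASH and retromer genes, which form the sorting machinery that Magel2 acts on, were all tested, 14 of 14. They were 7 positive and 7 negative with a median of 0.002, and 4 were below an unadjusted p of 0.05. The actin capping genes Capza1 and Capza2 had log2 fold changes of -0.01 and 0.01 (edgeR adjusted p 0.96 and 0.927). Washc3, a WASH complex subunit, had the largest at 0.15 (25.7 ± 1.58 against 28.4 ± 1.47 CPM, edgeR adjusted p = 0.396). RNA of this machinery was thus read in samples where Magel2 had no reads.

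Around Ndn and Magel2, in the Prader-Willi/Angelman region, 9 of 13 genes were at 0 in every sample, among them Mkrn3, Peg12, Snrpn and Snurf. Of this region, 3 genes were tested, all with negative values (median -0.033), 0 of them below an unadjusted p of 0.05. Ube3a, the Angelman ubiquitin ligase gene, had 151 ± 4.92 CPM in PVITRO and 148 ± 5.91 in PTRVITRO (-0.03, edgeR adjusted p = 0.821). Herc2 was also well expressed (-0.03, edgeR adjusted p = 0.918), and Atp10a was near the floor at 0.461 and 0.451 CPM (-0.09, edgeR adjusted p = 0.96). The genes of this list that are expressed from the paternal copy were thus without reads, and Ube3a and Herc2 were read at ample depth.

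Of 20 other imprinted genes, 8 were at 0 and 6 were tested, 3 positive and 3 negative (median -0.045), with 2 below an unadjusted p of 0.05. Gnas, the stimulatory G protein gene, had 776 ± 48.9 CPM in PVITRO and 815 ± 8.23 in PTRVITRO (0.07, edgeR adjusted p = 0.574). Igf2r, a growth factor scavenger receptor gene, had 33.1, 33.4 and 32.5 CPM against 28.1, 30.3 and 29.2. The groups of Igf2r did not overlap, but it was not called (-0.18, edgeR adjusted p = 0.208). The largest value was -0.20 for Phlda2 (edgeR adjusted p = 0.4).

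Germline genes that somatic cells keep silent by DNA methylation or the PRC1.6 complex are the nearest in kind to type I MAGE genes. Of 30 listed, 14 were at 0 in every sample and 4 were tested, 1 positive and 3 negative, with a median of -0.398. Rhox5, an X-linked homeobox gene of the testis, had counts of 23, 13 and 17 in PVITRO and 11, 14 and 4 in PTRVITRO. As CPM these were 0.707 ± 0.275 and 0.353 ± 0.135, and the groups overlapped. Its log2 fold change of -0.91 was the 1 below an unadjusted p of 0.05 (edgeR, adjusted p = 0.424).

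Sycp1, which encodes a protein of the synaptonemal complex, had 1.24 ± 0.416 and 1.02 ± 0.123 CPM (-0.30, edgeR adjusted p = 0.732). Brdt, a testis bromodomain gene, had 0.75 ± 0.162 and 0.501 ± 0.243 (-0.50, edgeR adjusted p = 0.65). Taf7l, an X-linked gene for a germ cell transcription factor subunit, went the other way with 4.71 ± 1.27 and 5.82 ± 0.598 (0.31, edgeR adjusted p = 0.548). All 4 had counts above 0 in every PTRVITRO sample, unlike Mageb16.

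The machinery of DNA methylation and silencing was tested for 27 of 28 genes. Of these, 9 were positive and 18 negative with a median of -0.019, and 3 were below an unadjusted p of 0.05. Mbd2, a reader of methylated DNA, had 158 ± 5.35 CPM in PVITRO and 167 ± 6.88 in PTRVITRO (0.08, edgeR adjusted p = 0.538). The largest values were 0.22 for Dnmt3l and 0.22 for Tet2. Dnmt3l, a cofactor of de novo methylation, had 10.6, 9.01 and 11.9 CPM against 11.8, 12.4 and 12.4, with overlap (edgeR adjusted p = 0.448). Tet2, an enzyme that oxidizes methylated cytosine, had 15.4, 16.7 and 14.1 CPM against 17.2, 18.1 and 18.6, without overlap (edgeR adjusted p = 0.293). The others below an unadjusted p of 0.05 were Hells, a chromatin remodeler needed for DNA methylation (0.13, edgeR adjusted p = 0.256), and E2f6, a repressor subunit of PRC1.6 (0.14, edgeR adjusted p = 0.266), both without overlap. DNA methylation itself was not measured in these samples.

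**Figure D5:**
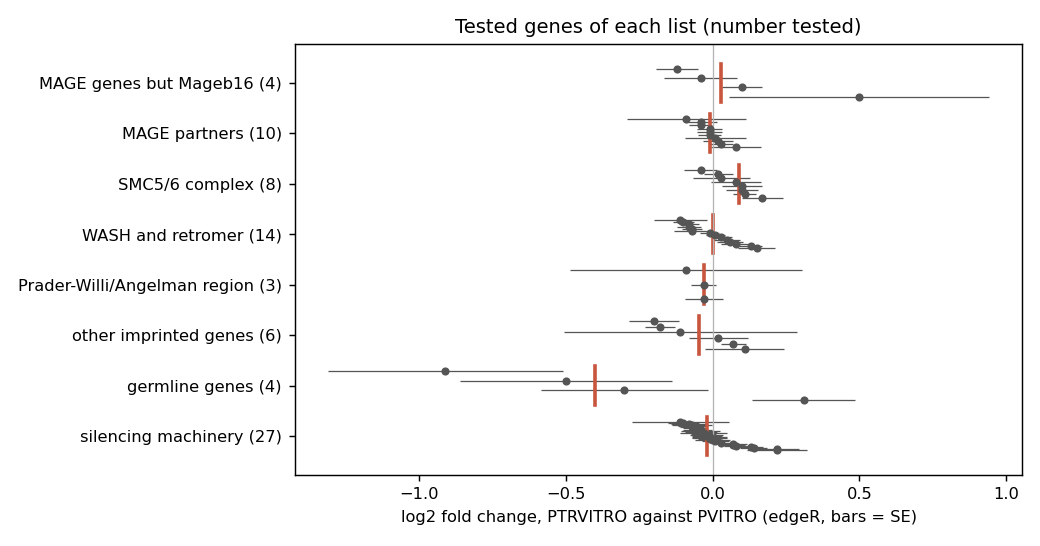
Log2 fold change of PTRVITRO against PVITRO (edgeR) for each tested gene of the 7 lists and for the MAGE genes other than Mageb16, with bars for the SE, a mark for the median of each row and the number tested in brackets. Mageb16 is left out because its PTRVITRO counts are 0. The medians lie between -0.398 for the 4 germline genes and 0.088 for the SMC5/6 complex.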

How the data were processed

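The authors aligned the stranded libraries to GRCm38 and deposited gene-level expected counts (RSEM estimated counts), not scaled between samples. Their processing notes name FastQC 0.11.5, STAR 2.6.0a and RSEM 1.3.1. Whether RSEM used strand is not stated, and 12.5% to 13.8% of a sample's 53465 values, zeros included, were not exactly whole as deposited. The study calls its replicates technical where it says nothing else, so p-values measure the spread between these libraries.

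Counts were rounded, filtered with filterByExpr (minimum count 10, total 15), scaled by the upper quartile and tested with edgeR 4.0.16 (R 4.3.3, glmQLFit and glmQLFTest, no covariate besides group). Benjamini-Hochberg adjustment ran over 14217 genes, and a gene is called where its adjusted p is below 0.05. SE values were derived from the F statistic. The script was tested on simulated data with 200 changed genes. Alternatives were limma-voom (limma 3.58.1), DESeq2 1.42.0, TMM or no scaling factors, other filters, a replicate block and leaving out each sample.

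The members and lists were chosen with earlier results of these data known. Named by rule were the members, other MAGE genes with a count, called list genes, per list the 2 most abundant and the 1 most changed tested gene, the 3 nearest tested genes on each side of Mageb16, the 5 genes most like it by Pearson's r (prior count 2), and genes at 0 in 1 group and at 10 or more in each sample of the other. Named outside that rule were marker genes, genes that share sequence or overlap, list genes given as being at 0, Gm14698, Tbl1x, Prkx, Brdt, Tet2, Hells and E2f6. Symbols, exon lengths and 50-base stretches came from GENCODE M21, while the authors used M16, and 53274 of 53465 identifiers matched. Promoter sequences came from RefSeq, GRCm38.p6.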

Additional observations from a re-analysis of the deposited data

How the results depend on the processing

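Counts of calls moved with the processing, and the cause was not tested. Against 35 genes called, DESeq2 called 105, the fit without a filter 400, the filter of 10 counts in every sample 54, and the replicate block 68. Leaving out 1 sample gave 8 to 64 calls: 11 without PVITRO replicate 1, 64 without PVITRO replicate 2, 9 without PVITRO replicate 3, 12 without PTRVITRO replicate 2 and 8 without PTRVITRO replicate 3. X-linked calls were 2, 8 without a filter and 1 with 10 counts in every sample, a filter that removes Mageb16, and 1 to 2 with a sample left out. The bound on Mageb16 ran from 19.2-fold to 26.5-fold with a sample left out. Over the longest transcript, levels in PVITRO were 1.42 CPM per kb for Mageb16, 38.6 for Maged1 and 4.3 for Maged2. The log2 fold change of Magee1 ran from 0.18 to 1.18, of Maged1 from -0.19 to -0.07 and of Maged2 from -0.17 to 0.07 with a sample left out. Without scaling factors, 19 of 38 calls were higher (50%) against 14 of 35 (40%). Samples with the same replicate number did not deviate together (correlations 0.109, 0.095 and -0.0556), so the numbers do not pair them and the block is not read further. The 7 lists had 0 calls under all 13 alternatives, from which nothing is read at 0.246% of all genes called. Depth limits Magee1, Atp10a, Rhox5 and Brdt, each with a count under 10 in at least 1 sample.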
